A study of Danio rerio with 6 samples.

Results

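P-TEFb, the 7SK ribonucleoprotein that holds it inactive, and the ELL elongation factors were followed in RNA of whole zebrafish embryos injected with a morpholino against Spt5. The group comprised 10 genes: cdk9, ccnt1, ccnt2a, ccnt2b, hexim1, larp7, mepcea, ell, ell2 and eaf1. They were chosen by gene symbol, current or older, in the platform annotation, and all 10 of these genes, out of 8793 named on the array, were measured, with 13 of its 15617 probe sets. ell2 had 3 probe sets, mepcea had 2 and each other gene had 1.

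RNA polymerase II pauses shortly after it starts many genes, and Spt5, a subunit of DSIF, takes part both in that pause and in the elongation that follows. P-TEFb is a kinase of Cdk9 with a T-type cyclin. In human cells it phosphorylates Spt5, the pausing factor NELF and the tail of the polymerase, and so releases the pause. A large share of it is held inactive on the 7SK RNA by Hexim1, while Larp7 binds that RNA and Mepce caps it. ELL proteins raise the rate at which the polymerase adds nucleotides and, with EAF proteins as partners, join P-TEFb in the super elongation complex.

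The study held 6 arrays of TL strain embryos kept in E3 medium. Embryos at 21 hours post-fertilization (hpf) had been injected during the first cleavages with about 2.5 pmol of the Spt5 morpholino (2 arrays) or of a standard control morpholino (2 arrays), both tagged with carboxyfluorescein, or were untreated (1 array). The last array was of untreated embryos at 5 hpf. All were wild-type embryos taken whole, so a lower or higher level cannot be told apart from fewer or more cells of a type that carries the transcript. The labels do not say whether replicate arrays came from separate clutches, so p-values may measure technical spread alone.

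The morpholino is shown because all contrasts with Spt5 morpholino embryos rest on it. It is an antisense oligonucleotide of 25 bases, written 5′ to 3′ in lower case as the labels give it, and its position on the supt5h transcript was not analysed here.
Spt5 morpholino: gtttctctacagtctgtcgctcctg

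The targeted gene was measured by 1 probe set, Dr.20907.1.S1_at. The log2 intensity of supt5h was 7.72 and 7.42 on the Spt5 morpholino arrays and 7.61 and 7.43 on the control morpholino arrays, after quantile normalization over these 4 arrays. The groups overlapped, and the difference of 0.05 ± 0.14 (log2, SE; limma adjusted p = 0.804) changed sign on the values as deposited (-0.16). A morpholino need not change the level of the mRNA it binds, so these values do not check the knockdown.

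Median intensities of the arrays ran from 18.3 to 44.0, and 6523 to 8961 probe sets reached an intensity of 32. The ratio of 3′ to 5′ signal of the actin control probe sets stood at 6.94 and 6.99 on the Spt5 morpholino arrays, below the 9.91 and 9.61 of the control morpholino arrays. That of the GAPDH control probe sets was 1.39 and 1.42 against 1.70 and 1.76. Between the morpholinos, 8 of 15 tested probe sets for genes of later tissues fell. They were those of hbae3, hbbe3 (blood), ckma, mylpfa (muscle), col2a1a (notochord) and crestin (neural crest). The probe set of the muscle gene tnnt3b was called higher. Its intensity was 24.8 on the untreated array at 21 hpf, under the filter's 32. A high level with the Spt5 morpholino could thus by itself bring tnnt3b into the test. The 4 tested neuronal probe sets, of elavl3 and neurod1, were at 0.07 to 0.28, sox10 at -0.08 and acta1a at -0.06, none of them called. Of 10 probe sets of a list chosen for the late blastula 4 passed the filter, those of vox, ved, zp3b and pou5f3, and these were called higher. The last 3 had intensities of 20.2, 24.3 and 27.4 on the untreated array at 21 hpf, under the filter's 32, so a high level with the Spt5 morpholino could by itself bring them into the test, and no count is read from them. The other 6, among them nanog, buc and cldnd, were too dim to test. The summed intensity of the later tissue list was lower on the Spt5 morpholino arrays (2612.5 and 3148.4) than on the control morpholino arrays (9168.5 and 11371.1), and that of all 10 late blastula probe sets was 738.5 and 856.2 against 314.8 and 393.7. In untreated embryos all 14 counted later tissue probe sets were higher at 21 hpf and all 7 counted late blastula probe sets at 5 hpf. The 14 had intensities of 0.5 to 16.7 at 5 hpf, and the 7, apart from vox, were under 32 at 21 hpf. They were thus counted only through the age at which they were high, so these counts do not check the age labels. Without a filter, the summed intensity of the later tissue list was 98.4 at 5 hpf and 10471.1 at 21 hpf. That of the late blastula list was 6450.6 and 268.9, of which vox alone gave 206.8 and 135. The shifts of both lists between the morpholinos ran beside every difference between the morpholinos given here, and their part in it was not tested.

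The first comparison asked which genes respond to the Spt5 morpholino. Among P-TEFb, 7SK and ELL factors, both ELL genes rose: ell2 by 2.44- to 2.82-fold on its 3 probe sets and ell by 1.84-fold. The kinase, its cyclins, the 7SK proteins and eaf1 did not pass the test. Of the 12 member probe sets tested, 4 rose and 0 fell (limma, adjusted p under 0.05 over all 8457 probe sets tested). At an unadjusted p under 0.05, 5 were higher and 0 lower, but no share of all probe sets at that threshold is given here, so these counts have no background. Over the whole array 24.3% of tested probe sets were called higher and 23.0% lower, so the number of member probe sets that rose is not far from the background. With any 1 array left out, which leaves 1 array in a group, the ell2 differences were 1.17 to 1.57. That of ell was then 0.81 to 0.95, and the other tested member probe sets ran from -0.26 to 0.61. The median log2 difference was 0.24 over the 12 and 0.04 over all probe sets.

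ell2 encodes an ELL protein that in human cells is a partner of P-TEFb in the super elongation complex. On probe set Dr.18285.1.A1_at the log2 intensity of ell2 was 9.02 and 9.09 on the Spt5 morpholino arrays against 7.69 and 7.65 on the control morpholino arrays. On Dr.17099.2.A1_at the ell2 values were 7.42 and 7.54 against 6.06 and 5.91, and on Dr.17099.1.A1_at they were 7.03 and 6.94 against 5.58 and 5.81. On each of the 3 probe sets both Spt5 morpholino arrays lay above both control arrays, by more than the gap between replicates.
The ell2 differences were 1.39 ± 0.09 (adjusted p = 0.0011), 1.49 ± 0.11 (adjusted p = 0.0012) and 1.29 ± 0.12 (adjusted p = 0.0017) in that order (log2, SE, n = 2 and 2, limma). All 3 exceeded 2-fold, a size that 4.69% of all tested probe sets reached upwards with a call. Each ell2 probe set was called under all 12 alternative settings, at 0.99 to 1.57.

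ell, the founding member of the family, was measured by 1 probe set. Its log2 intensity was 6.84 and 6.97 in Spt5 morpholino embryos and 6.11 and 5.94 in control morpholino embryos. The groups did not overlap, and the rise of ell was 0.88 ± 0.11 on the log2 scale (SE, n = 2 and 2), with a limma adjusted p of 0.0036. ell was no longer called on the values as deposited (0.63; adjusted p = 0.165) or when dim probe sets were kept in (adjusted p = 0.0567), and was called in the other 10 of 12 settings. eaf1, whose product binds ELL proteins and stimulates them, stood at 5.97 and 5.81 against 5.76 and 6.15. The eaf1 groups overlapped, and the difference was -0.06 with a 95% interval from -0.47 to 0.34 (limma adjusted p = 0.766).

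**Figure D1:**
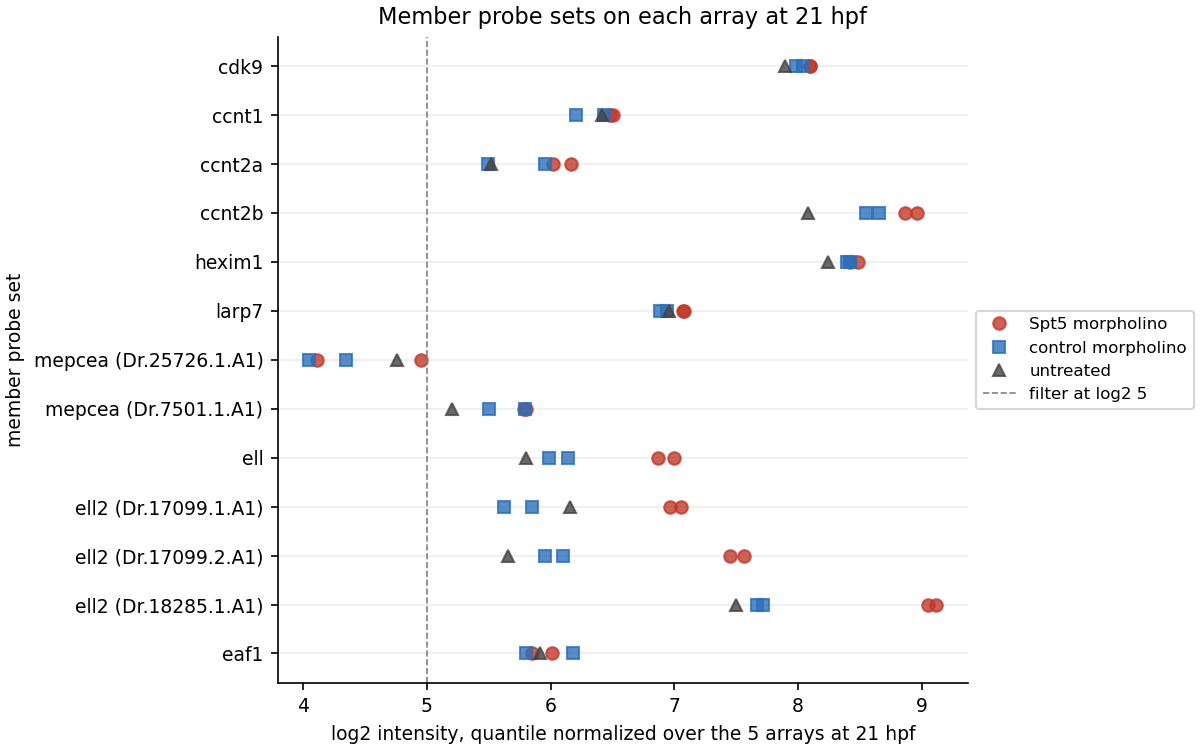
Log2 intensity of the 13 member probe sets on each array at 21 hpf, quantile normalized over the 5 arrays (x axis; 1 symbol per array; dashed line, log2 5). The Spt5 morpholino arrays stand apart to the right for ell and all 3 ell2 probe sets, ccnt2b forms 3 separate groups with untreated lowest, the other genes lie closer together or overlap between the morpholinos, and 1 mepcea probe set lies below the dashed line on all 5 arrays.

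The kinase and cyclins of P-TEFb differed by less. cdk9, the catalytic subunit, was at 8.07 on both Spt5 morpholino arrays and at 7.95 and 8.02 on the control morpholino arrays. The cdk9 difference was 0.09, with a 95% interval from -0.15 to 0.32 on the log2 scale (limma adjusted p = 0.469). ccnt1, a cyclin subunit, was at 6.47 and 6.44 on the Spt5 morpholino arrays and 6.17 and 6.40 on the control arrays, a difference of 0.17 (interval -0.12 to 0.46; adjusted p = 0.258). For both genes the Spt5 morpholino arrays lay narrowly above the control arrays.
ccnt2b, 1 of the 2 zebrafish genes for cyclin T2, was at 8.94 and 8.84 against 8.53 and 8.63. Its groups were separate, and the difference of 0.31 ± 0.10 stood just outside the threshold (interval 0.06 to 0.56; limma adjusted p = 0.0529). ccnt2b passed with a filter at log2 6 (adjusted p = 0.0288), with median centring (0.0390) and with an intensity trend in eBayes (0.0071), and fell to 0.05 with spike-in centring. The paralog ccnt2a was at 6.13 and 5.98 against 5.92 and 5.45, with the 2 control arrays farther from each other than the groups. The ccnt2a difference of 0.37 (interval -0.08 to 0.83; adjusted p = 0.143) became 0.61 and was called without control morpholino replicate 1 (limma adjusted p = 0.0298).

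The 7SK proteins showed small differences, none of them called. hexim1, the inhibitor of P-TEFb, was at 8.40 and 8.46 on the Spt5 morpholino arrays, close to the 8.40 and 8.37 of the control morpholino arrays. The hexim1 groups overlapped, and the difference was 0.04 (interval -0.19 to 0.28; limma adjusted p = 0.720). larp7, which binds and stabilises 7SK RNA, was at 7.05 and 7.04 against 6.91 and 6.85, a difference of 0.17 (interval -0.07 to 0.40; adjusted p = 0.188). mepcea, a capping enzyme of 7SK RNA, was at 5.76 and 5.75 against 5.75 and 5.46 on probe set Dr.7501.1.A1_at, a difference of 0.15 (interval -0.18 to 0.47; adjusted p = 0.385). Its other probe set, Dr.25726.1.A1_at, was the member probe set left out by the filter. It was below log2 5 on all 4 arrays, with 4.90 as its highest value.
Across the 8 tested probe sets outside ell and ell2, differences ran from -0.06 to 0.37, and no 95% interval went above 0.83 or below -0.47. Of these 8, 7 were above 0, but the sign depends on scaling: cdk9, ccnt1, hexim1, larp7 and mepcea turned to between -0.04 and -0.15 on the values as deposited, where 305 probe sets of the array were called higher and 1350 lower, against 2059 and 1942 after quantile normalization. Both groups were separate, with the Spt5 morpholino above, for 9 of the 12 tested member probe sets and below for 0, against 40.5% and 36.5% of all tested probe sets.

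**Figure D2:**
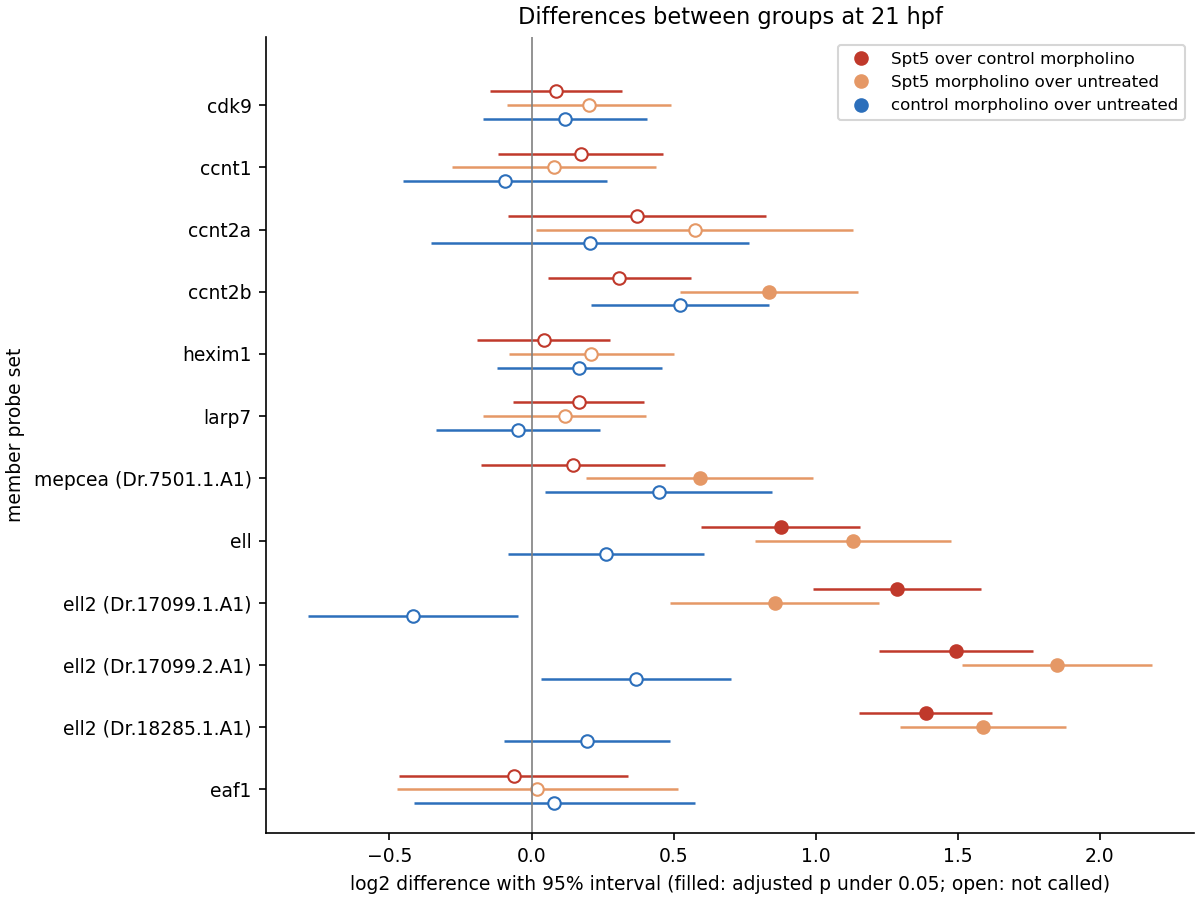
Log2 differences of the 12 tested member probe sets with 95% intervals for 3 pairs of groups at 21 hpf (filled, adjusted p under 0.05; open, not called). ell and the 3 ell2 probe sets are the filled points for Spt5 over control morpholino, and all 12 points for control morpholino over untreated are open.

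Both morpholino groups were then set beside untreated embryos of the same age, in a fit over the 5 arrays that holds 1 untreated array, assumed to vary like the others. These comparisons share arrays with each other and with the first. Over untreated embryos, 6 of 12 member probe sets rose with the Spt5 morpholino and 0 fell, beside 23.0% of all tested probe sets called higher and 20.9% called lower. ell rose by 1.13 ± 0.13 (limma adjusted p = 0.0038) from 5.80 in untreated embryos. ell2 rose by 1.59 ± 0.11 on Dr.18285.1.A1_at (from 7.50), by 1.85 ± 0.13 on Dr.17099.2.A1_at (from 5.66) and by 0.86 ± 0.14 on Dr.17099.1.A1_at (from 6.15), with adjusted p of 0.0015, 0.0014 and 0.0095.
The other 2 were ccnt2b, at 0.84 ± 0.12 (limma adjusted p = 0.0066), and mepcea on Dr.7501.1.A1_at, at 0.59 ± 0.16 (adjusted p = 0.0331). mepcea was not called when Spt5 morpholino replicate 1 (adjusted p = 0.0979) or replicate 2 (0.0909) was left out, nor with spike-in centring, where it was at 0.18 (adjusted p = 0.389). On the values as deposited the calls of ell (0.82; adjusted p = 0.147), ccnt2b (0.60; 0.326), ell2 on Dr.17099.1.A1_at (0.58; 0.354) and mepcea (0.23; 0.756) were lost, and without the filter the same 4 had adjusted p of 0.0558, 0.0685, 0.0816 and 0.149. ell2 on Dr.18285.1.A1_at and Dr.17099.2.A1_at was called in both. cdk9 was at 0.20, hexim1 at 0.21, larp7 at 0.12, ccnt1 at 0.08 and eaf1 at 0.02, none of them called.

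With the control morpholino, 4 of the 12 member probe sets had an unadjusted p under 0.05 against untreated embryos in limma. No share of all probe sets at that threshold is given here. After adjustment 0 of the 12 were called, beside 2.87% of all 8701 tested. The 250 calls behind that share dropped to between 2 and 10 with any 1 morpholino array left out. The largest of these 4 was ccnt2b, at 8.55 and 8.65 with the control morpholino and 8.08 untreated, a difference of 0.52 ± 0.12 (limma adjusted p = 0.0975). It was called with a filter at log2 6 (0.0491) and with an intensity trend (0.0088). ccnt2b thus stood lowest on the untreated array, between on the control morpholino arrays and highest on the Spt5 morpholino arrays, and only the step from untreated to Spt5 morpholino passed the test.
The ell2 probe sets did not move together here. Dr.17099.1.A1_at was lower with the control morpholino, at 5.63 and 5.85 against 6.15 (difference -0.42; limma adjusted p = 0.178), and Dr.17099.2.A1_at was higher, at 6.10 and 5.95 against 5.66 (0.37; adjusted p = 0.187). Neither was called. mepcea was at 0.45 (adjusted p = 0.182) and ell at 0.26 (adjusted p = 0.303).

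Further genes that act with or on P-TEFb, or on the phosphorylated tail of polymerase II, were taken from a list of 31, of which 23 were on the array with 38 probe sets and 17 were tested with 28. Between the morpholinos 2 of the 28 probe sets rose, both of 1 gene, 5 fell and 21 were not called, against 24.3% and 23.0% over the array. Their median log2 difference was -0.13, beside 0.04 over all. These counts depend on the setting: 0 rose and 3 fell on the values as deposited, 0 and 0 without the filter, and 2 and 16 with spike-in centring. Over the whole array 305 probe sets rose and 1350 fell on the values as deposited. Without the filter they were 342 and 532, and with spike-in centring 910 and 3516. The number tested in each setting is not given here, so these are counts and not shares.
ssu72, a phosphatase of the polymerase tail, rose by 0.75 ± 0.10 and 0.86 ± 0.18 on its 2 probe sets (limma adjusted p = 0.0044 and 0.0141). Neither ssu72 call held on the values as deposited or without the filter, and over untreated embryos ssu72 was at 0.33 and 0.62 without a call (adjusted p = 0.0913 and 0.0713). The splicing factor genes srsf2a and srsf2b fell by 0.71 ± 0.10 and 0.48 ± 0.10 (adjusted p = 0.0053 and 0.0158), the product of SRSF2 being linked in mammalian cells to release of P-TEFb from 7SK. ddx21, an RNA helicase gene given a like role in human cells, fell by 0.69 ± 0.13 (adjusted p = 0.0106). mepceb, the paralog of mepcea, fell by 0.45 ± 0.13 on 1 of 3 probe sets (adjusted p = 0.0355), and its other 2, at -0.22 and -0.25, were not called. cdk13, for a kinase of the polymerase tail, was at least 1.56-fold lower on a probe set below log2 5 on both Spt5 morpholino arrays (adjusted p = 0.0061). It passed the filter only through the control morpholino arrays, where it was high. Its call, counted among those that fell, is therefore not read as a result. That probe set carries the suffix the array maker uses for possible cross-hybridisation, and the other tested probe set of cdk13 was at -0.11 without a call. The acetyl-lysine readers brd2a, brd3a and brd3b gave 9 tested probe sets and no call, and eaf2, the relative of eaf1, was at 0.01 (interval -0.24 to 0.25). Over untreated embryos 2 of the 30 probe sets of this list tested there were called higher and 5 lower, against 23.0% and 20.9% over the array. Called higher were 1 probe set of brd3b (0.49, limma adjusted p = 0.0257) and 1 of polr2a (0.40, 0.0412). Called lower were srsf2a (-0.84, 0.0076), ddx21 (-0.57, 0.0362), ccnk (-0.45, 0.0334) and the mepceb and cdk13 probe sets named next, while srsf2b (-0.25, 0.162) was not called. The mepceb probe set called between the morpholinos was at -0.15 there (0.458), while another mepceb probe set was called lower (-0.43; 0.0412). The dim cdk13 probe set was at least 1.14-fold lower (0.0430), again with both Spt5 morpholino arrays below log2 5 and with the same limit.

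**Figure D3:**
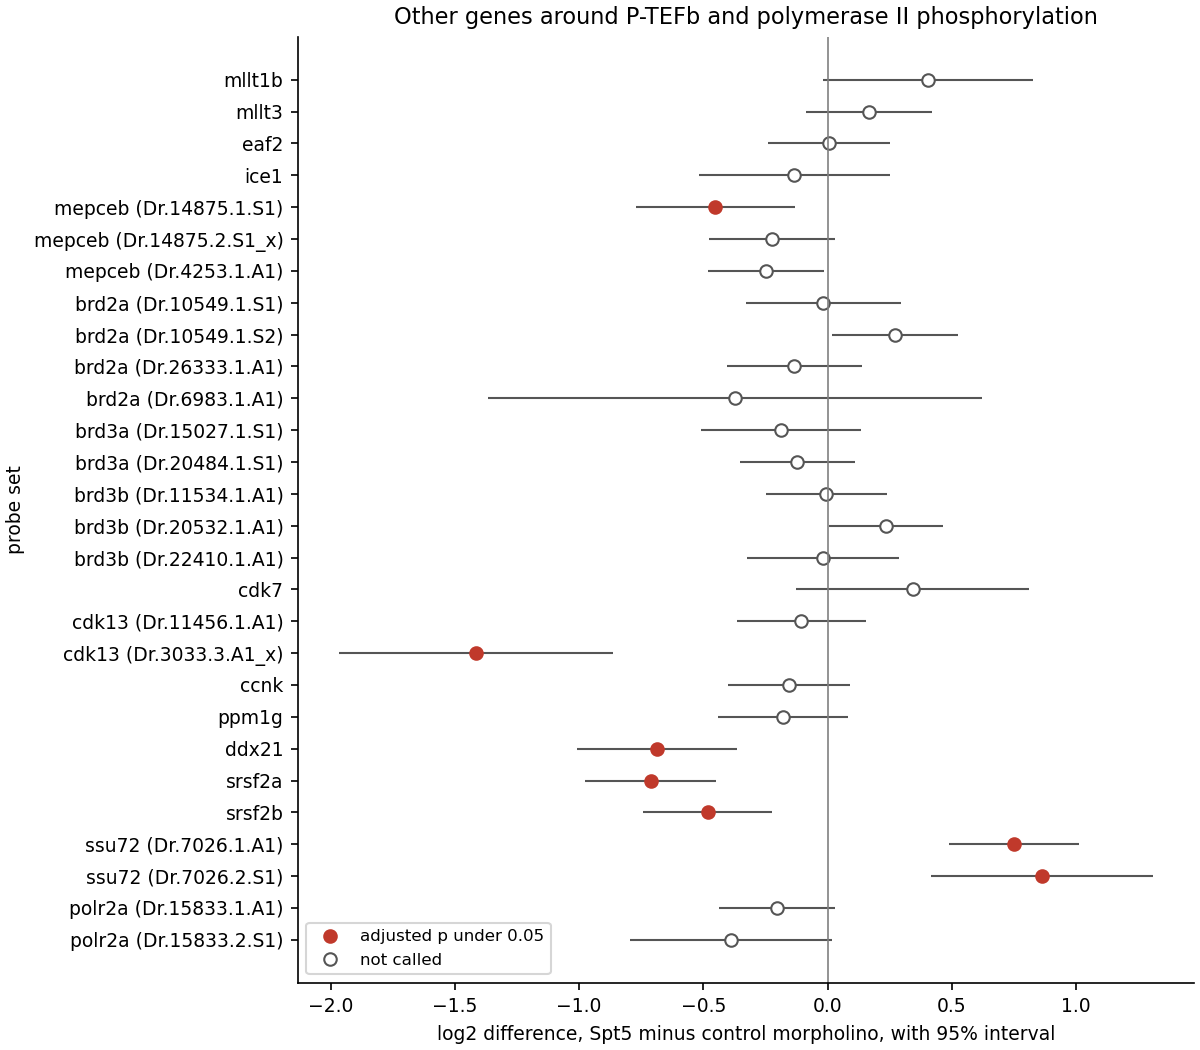
Log2 difference between Spt5 and control morpholino, with 95% intervals, for the 28 tested probe sets of the further list (filled, adjusted p under 0.05). Both ssu72 probe sets lie to the right of 0 and those of srsf2a, srsf2b and ddx21 to the left, and 21 points are open.

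The last comparison, of untreated embryos at 21 and 5 hpf, was made by the study to gauge how far genes are activated over that time. It has 1 array a group and therefore no test and no replicate check. The actin ratio of 3′ to 5′ signal was 1.96 on the array at 5 hpf and 7.59 on that at 21 hpf. The muscle actin gene acta1a itself had intensities of 5.9 and 1094.9 at these ages, so the actin ratio is not read as RNA integrity here. The ratio of the GAPDH control probe sets was 0.95 and 1.24. Median intensities of these 2 arrays were 18.3 and 40.3. The part of these array differences in the values below was not tested. Most of the machinery was at a higher relative level at 5 hpf, in the late blastula: 11 of 13 member probe sets were lower at 21 hpf, beside 53.1% of all 9294 probe sets counted, and 10 were at least 2-fold lower, beside 32.8%. The 11 and the 10 include both mepcea probe sets, which reached log2 5 only at 5 hpf. Their lower place at 21 hpf was thus fixed by the filter, which also shaped the shares of all probe sets. The median difference was -1.41 over the members and -0.16 over all. The scale matters here, since all probe sets had a median of 0.43 on the values as deposited and 0.40 with spike-in centring, where 5 member probe sets were at least 2-fold lower. The count of 11 lower was the same with both. Median centring, with a median of -0.71 over all, gave 12 lower and 11 at least 2-fold lower. No share of all probe sets is given on these other scales, so these counts have no background there.

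mepcea showed the largest difference among the members. Its probe set Dr.7501.1.A1_at went from an intensity of 343.6 at 5 hpf to 41.8 at 21 hpf, a log2 difference of -3.04 as deposited and -3.06 with spike-in centring. The other mepcea probe set, Dr.25726.1.A1_at, went from 73.8 to 31.2, or -1.24 and -1.27. After quantile normalization over the 2 arrays both lay below log2 5 at 21 hpf, so no fold is given for mepcea on that scale. On the normalized log2 scale larp7 went from 8.55 at 5 hpf to 6.88 at 21 hpf, and eaf1 from 7.61 to 5.74.
cdk9 went from 8.81 to 7.79, a difference of -1.03. Among the cyclins ccnt1 was at -0.83, ccnt2a at -1.47 and ccnt2b at -1.41. ell stood at 7.55 at 5 hpf, and its difference at 21 hpf was -1.95.
hexim1 ran the other way, from an intensity of 84.1 at 5 hpf to 325.9 at 21 hpf. Its log2 difference was 1.51, and it stayed higher at 21 hpf under each scaling tried, at 0.82 to 1.95. Within these 2 arrays hexim1 was thus higher at the age at which the kinase and the cyclins were lower. larp7 and mepcea, the other 7SK proteins here, were lower at that age too.

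**Figure D4:**
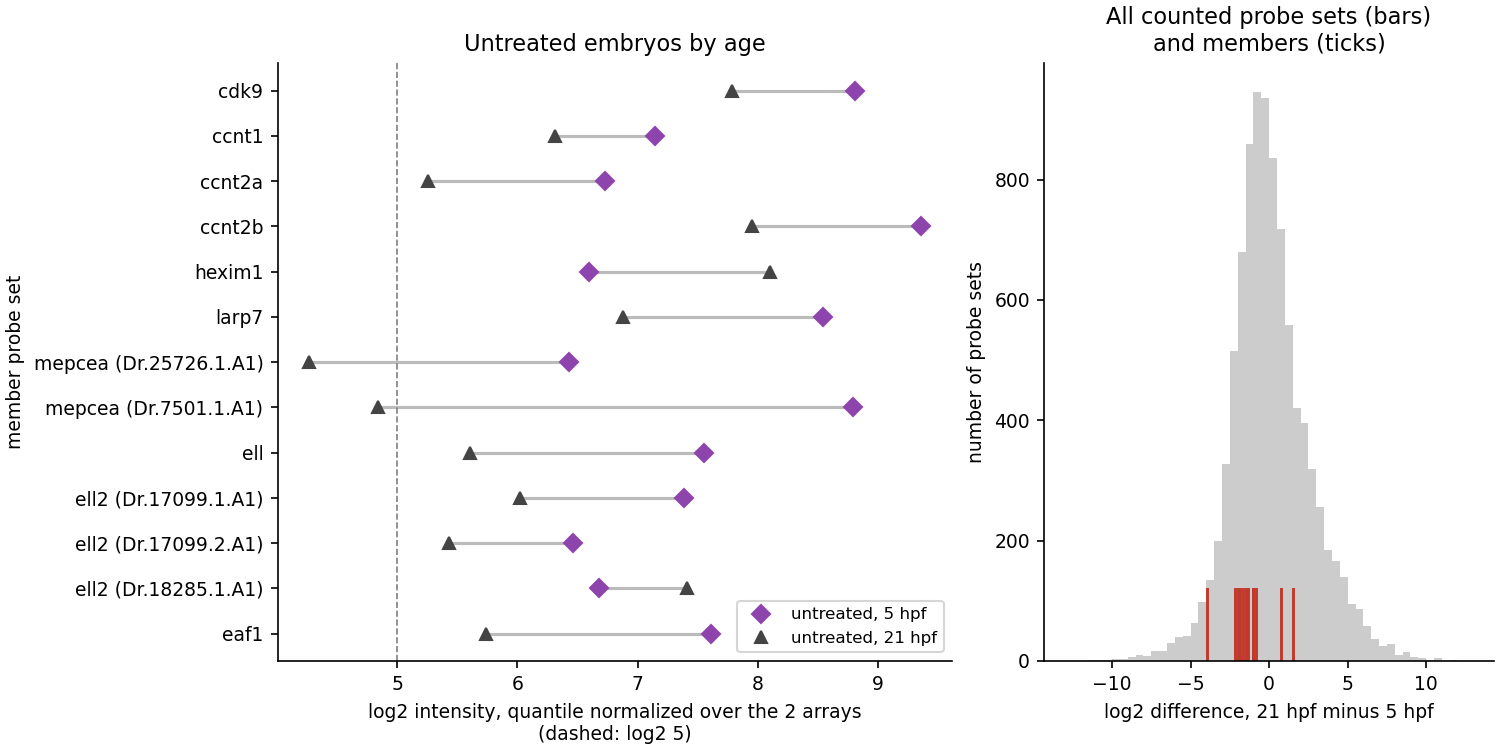
Left, normalized log2 intensity of each member probe set in untreated embryos at 5 hpf (diamonds) and 21 hpf (triangles), 1 array each. Right, the same log2 differences as ticks over the distribution of all 9294 counted probe sets. hexim1 and 1 ell2 probe set lie to the right at 21 hpf, the other 11 to the left.

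The probe sets of ell2 disagreed on age, although all 3 rose with the Spt5 morpholino. Dr.17099.1.A1_at went from an intensity of 146.8 at 5 hpf to 78.6 at 21 hpf (log2 difference -1.37) and Dr.17099.2.A1_at from 76.0 to 56.8 (-1.03). Dr.18285.1.A1_at went from 89.2 to 193.6 (0.73), though with median centring it was at -0.02. The part of the ell2 transcript that each one reads was not analysed here, and the direction of ell2 with age is uncertain.
Set side by side without a test, ell was at -1.95 with age and 0.88 between the morpholinos. The ell2 probe sets, in the order just given, were at -1.37, -1.03 and 0.73 with age and at 1.29, 1.49 and 1.39 between the morpholinos. hexim1 was at 1.51 and 0.04. The tested probe sets of cdk9, ccnt1, ccnt2a, ccnt2b, larp7, mepcea and eaf1 were all lower at 21 hpf, with log2 differences of -0.83 or further from 0, and were at -0.06 to 0.37 between the morpholinos.

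**Figure D5:**
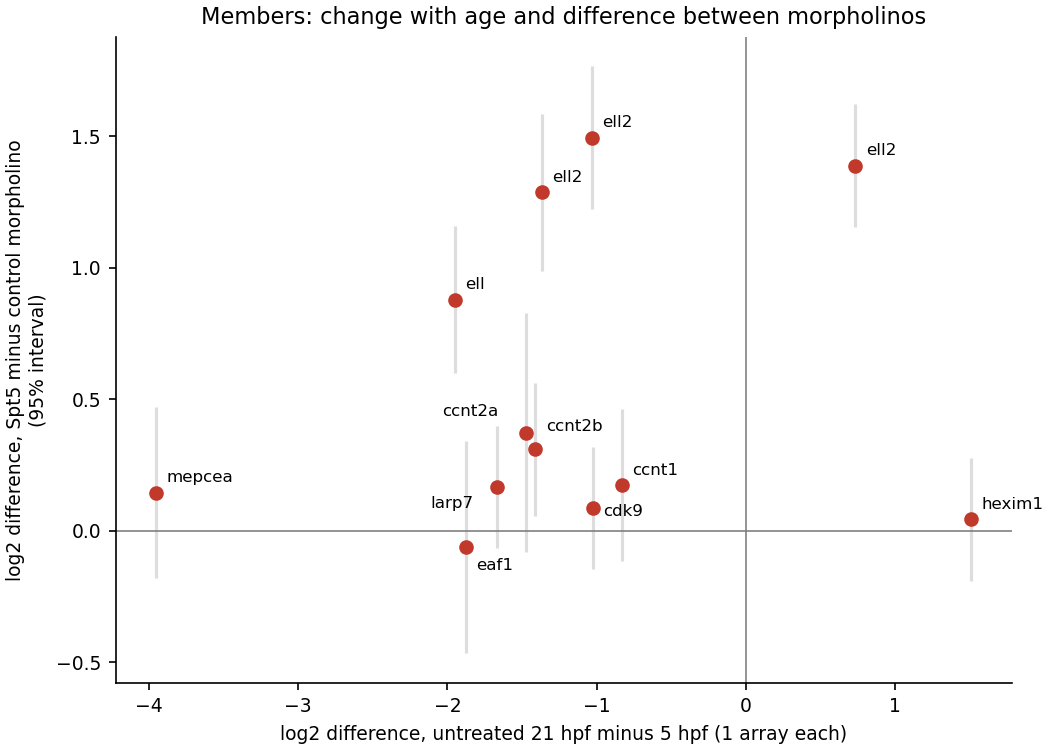
Each tested member probe set by its log2 difference with age in untreated embryos (x axis, 1 array each) and its log2 difference between Spt5 and control morpholino (y axis, with 95% interval). The 3 ell2 probe sets are at the top on both sides of 0 on the x axis, and hexim1 is at the right near 0 on the y axis.

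The genes closest to the called members over all 6 arrays were found by the Euclidean distance between log2 profiles, each centred on its mean, among 6807 named probe sets. Nearest to ell was rnf19a, a ubiquitin ligase gene, at a distance of 0.16, then fthl27 (0.20) and slain2 (0.20). Nearest to ell2 on Dr.18285.1.A1_at was insig1, a regulator of sterol synthesis, at 0.12, followed by tsc22d3 (0.22) and the small Maf gene maff (0.24). On Dr.17099.2.A1_at ell2 lay nearest to vox, a ventral homeobox gene and 1 of the late blastula genes above, at 0.24, then to snx11 (0.25) and pierce1 (0.29). On Dr.17099.1.A1_at it lay nearest to msi2b (0.16), elp5 (0.22) and slc9a7 (0.30). The ell2 probe sets were 1.36 to 2.44 from each other. The named genes were picked as the nearest of 6807 probe sets, so their smaller distances do not show how alike the ell2 probe sets are. The distances describe 6 arrays and carry no test.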

How the data were processed

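The deposited values are probe set intensities from Affymetrix zebrafish arrays, on a linear scale. Per the submitters' processing notes the authors used GCRMA, with no version or settings given in the sources used here. GCRMA usually ends in quantile normalization, yet the deposited columns do not share a distribution, so the scale of the values as deposited is uncertain and a later scaling cannot be told from the sources used here. Array medians differ, so log2 values were quantile normalized across the arrays that entered each fit (4 morpholino arrays, 5 arrays at 21 hpf, or 2 untreated arrays). Control probe sets, 115 in number, did not enter. Testing required log2 5 (intensity 32) or more on at least 2 arrays of the fit, and counting between ages on at least 1. Groups came from sample titles. Tests were two-sided and used limma 3.58.1 (lmFit, then eBayes; R 4.3.3), and p-values were adjusted by Benjamini-Hochberg over every probe set tested, at a threshold of 0.05. The procedure was tested on simulated data. Dim groups were raised to log2 5 for a fold given as a lower limit. The number of arrays limits precision, with a median within-group SD of 0.11 (log2). The platform annotation gives 1 gene symbol for 10802 probe sets, several for 135 and none for 4680, and 10718 symbols were updated through Entrez identifiers (RefSeq, GRCz12tu). All member probe sets, supt5h, called genes of the further list (up to 6 each way) and the 3 nearest genes were named. Members, lists and tests were chosen with earlier results of these data known. Planned descriptions of proteins and promoters were not made. Alternatives were other scalings, filters, an intensity trend, a replicate block and leaving out single arrays.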

Additional observations from a re-analysis of the deposited data

How the results depend on the processing

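With 2 arrays a group, and 1 untreated array at each age, small differences were not detectable, and the sign of near-zero differences followed the scaling. Between the morpholinos 4001 probe sets were called, 1655 on the values as deposited, 874 without the filter and 2352 to 2788 with 1 array left out. Spike-in centring called 910 higher and 3516 lower. On the values as deposited cdk9 was at -0.11, ccnt1 -0.0425, hexim1 -0.15, larp7 -0.0594, mepcea -0.13 and supt5h -0.16. With spike-in centring they were at -0.16, -0.10, -0.20, -0.11, -0.19 and -0.22. With 1 array left out supt5h ran from -0.10 to 0.20, eaf1 from -0.26 to 0.13 and mepcea from -0.00020 to 0.29. Of the further list 2 rose and 5 fell, 0 and 3 as deposited, 0 and 0 without the filter, 2 and 16 with spike-in centring and 4 and 5 with the replicate block. Between Spt5 morpholino and untreated embryos 3823 were called, 1525 as deposited, 649 without the filter and 2515 to 3669 with 1 array left out, and 2 members rather than 6 were called in the first 2 of these. There cdk9, ccnt1, hexim1, larp7 and eaf1 were at -0.0170, -0.20, -0.0190, -0.13 and -0.31 as deposited and at -0.0627, -0.25, -0.0648, -0.17 and -0.36 with spike-in centring, and eaf1 ran from -0.0578 to 0.10 with 1 array left out. Between control morpholino and untreated embryos 250 were called, 58 as deposited, 0 without the filter, 490 with the filter at log2 6, 888 with an intensity trend and 2 to 10 with 1 array left out. The filter at log2 6 and the trend each called 1 member probe set. larp7 was at 0.0201 with median centring, and with 1 array left out ccnt1 ran from -0.21 to 0.0182, ccnt2a from -0.0263 to 0.44 and eaf1 from -0.11 to 0.27. Between ages 5 member probe sets were at least 2-fold lower as deposited and with spike-in centring and 11 with median centring, against 10. No share of all probe sets is given on those scales. With median centring ell2 on Dr.18285.1.A1_at was at -0.0210. The cause of these changes was not tested. With the replicate number as a block 4439 probe sets were called between the morpholinos, and the number of member probe sets called was unchanged, at 4. Deviations of same-numbered arrays correlated at 0.25 over probe sets, and the labels do not say that a number marks a shared clutch or day.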

Other observations

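Gene length was looked at after the values were seen, as a description without a test. In the RefSeq gene table of GRCz12tu, ell spans 71190 bases and ell2 25862, the 2 longest among the 10 members. The other 8 run from 1579 bases for hexim1 to 17401 for mepcea. The median over the named genes tested between the morpholinos was 14743 bases.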
